A study of Mus musculus with 41 samples.

Results

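The subject is 10 genes for transcription factors of epidermal fate, *Gata3*, *Klf4*, *Klf5*, *Grhl1*, *Grhl2*, *Grhl3*, *Ovol1*, *Ovol2*, *Zfp750* and *Cebpa*, out of 21701 uniquely named protein-coding genes. They were chosen by name, and all 10 were found in the annotation. For each gene, the peaks that overlapped the gene body or the 50 kb to either side (mm10) were taken from 16 pooled lists of CUT&RUN (CNR), a method that sequences the DNA released by a nuclease tethered to an antibody. In all, 131 MLL3/4 peaks of uninduced skin and 61 sites bound by SOX9 after induction lay at the 10 loci.

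All skin samples were CD1 males of the genotype K14rtTA; TRE-myc-Sox9, which makes MYC-tagged *Sox9* in cells with an active keratin 14 promoter once doxycycline (DOX) is given. Sorting of back skin took epidermal stem cells (EpdSCs) as CD49f-high, Ly6A-high and CD34-neg cells without CD31, CD45, CD117 and CD140a. SOX9 CNR covered D0 (postnatal day 21, no DOX) and 1 (day 28), 2 (day 35), 6 (day 63) and 12 weeks (W) of DOX, whereas MLL3/4 was mapped up to W2, at D0, W1 and W2. W12 skin had been grafted onto immunocompromised females, and D0 to W6 skin grew older with the weeks of DOX, so time on DOX, age and grafting cannot be told apart. Cultured keratinocytes of the same strain carried K14rtTA with 1 of 3 forms of SOX9, which were the full protein (WT-SOX9), a form that lacks the transactivation domain (dTA-SOX9, label TRE-myc-Sox9noTA) and a form that lacks the HMG domain and so does not bind DNA (dHMG-SOX9, label TRE-myc-Sox9noHMG). These lines came from newborn pups and took up the transgene by lentivirus. They were used without DOX (WT-SOX9 only) or at 1 µg/ml, and had MLL3/4 and MYC-tag CNR. Peak lists hold no expression, so the identity of the cells rests on the sort.

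GATA3 serves the formation of the skin barrier and the inner root sheath. KLF4 and KLF5 are Krüppel-like zinc finger factors of barrier formation and of epithelial growth. The grainyhead-like factors GRHL1, GRHL2 and GRHL3 bind enhancers of epithelial genes and are known for cell adhesion and barrier repair. OVOL1 and OVOL2 are zinc finger repressors that hold cells in an epithelial state, ZFP750 promotes late differentiation, and C/EBPα accompanies withdrawal from the cell cycle. MLL3 and MLL4 place the monomethyl mark of H3K4 at enhancers, so their peaks show which elements carry this machinery. SOX9 is the master factor of the hair follicle fate, which these keratinocytes do not normally take.

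Each group was represented by 1 list pooled from 2 samples, so no test between groups could be made. Shares are given with 95% Wilson intervals, which cover counting error only. In order of time, the 5 SOX9 lists held 792, 15651, 18657, 20579 and 9745 peaks, from 32.5, 17.4, 13.1, 23.8 and 21.8 M fragments. SOX9 at a site is given as the maximum in RPKM (reads scaled by bin length and by depth), and 1 fragment was worth 30.7, 57.6, 76.4, 42 and 46 RPKM in the same order. MLL3/4 lists held 37072 peaks at D0, 31539 at W1 and 29281 at W2, in coverage that was not scaled, so their depth is unknown. In culture, the no-DOX, WT-SOX9, dTA-SOX9 and dHMG-SOX9 lists held 33975, 10543, 25948 and 23301 MLL3/4 peaks and 2242, 6671, 11341 and 3980 MYC-tag peaks, the latter from 4.04 to 6.09 M fragments. A peak was lost where no peak of the later list overlapped it, kept otherwise, and gained where no earlier peak overlapped it. A lost peak was therefore a peak not called, which a shorter or shallower list can also give. The percentile of a peak is its rank by total signal (the signal summed over its bases) within its own list.

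**Figure D1:**
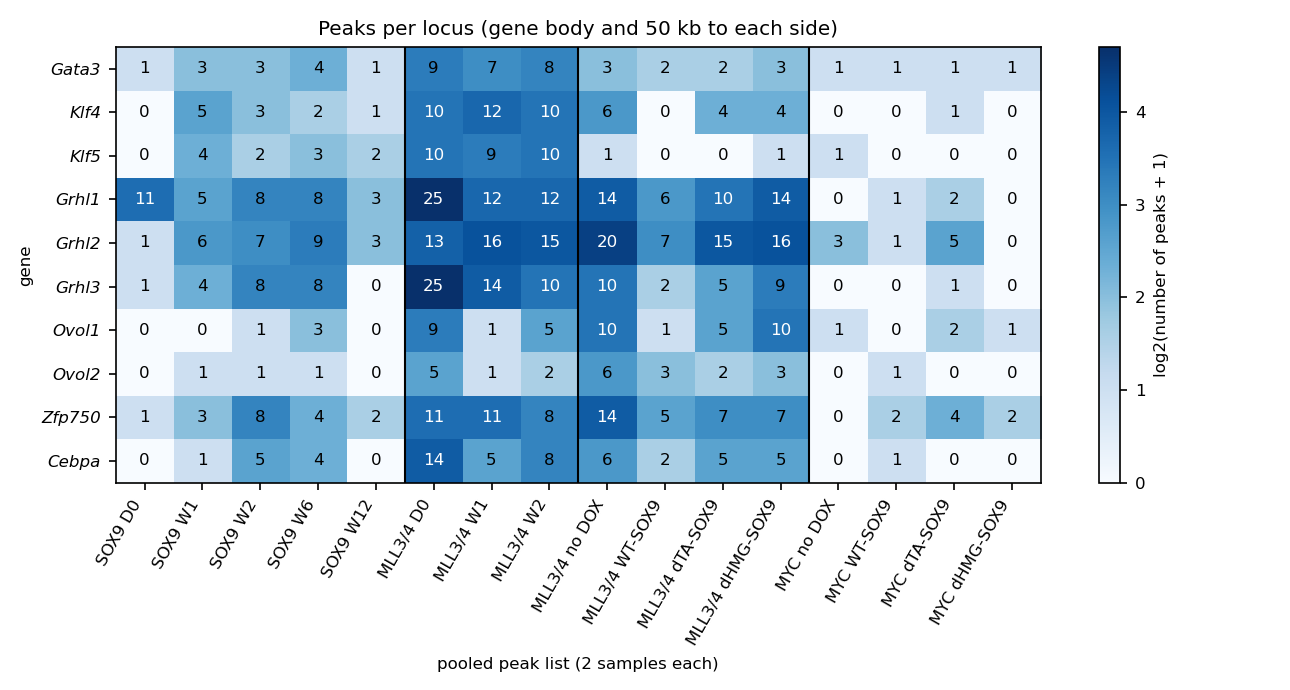
Number of peaks at each of the 10 loci (rows) in each of the 16 pooled lists (columns), printed in each cell and shaded by log2(number of peaks + 1). MLL3/4 peaks at D0 ranged from 5 at *Ovol2* to 25 at *Grhl1* and *Grhl3*, and 11 of the 15 SOX9 peaks at D0 lay at *Grhl1*.

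The sites that carry the results are shown first, as the plus strand of mm10. A SOX9 site was a stretch of overlapping SOX9 peaks from any time point, and 7 sites were seen at all of W1, W2, W6 and W12. The 50 bp on either side of each maximum were searched on both strands for consensus words. SOX words were CCATTGT or CCTTTGT or GCATTGT or GCTTTGT. Words for factors of the GATA family were AGATAAC or AGATAAG, and those for AP1 were TGACTCA or TGAGTCA. The GRHL word was AACCNGTT, and KLF words were GGGTGTGG or GGGCGTGG. Of the 7 sites, that of *Klf4* held a SOX word in its window at all 4 times, and that of the *Grhl1* intron held an AP1 word in the window of its weaker peak at W2 and W6. The *Klf4* window at W2 is given with the SOX word in capitals (chr4:55500233-55500333), beside W2 windows of the *Gata3* site (chr2:9835286-9835386) and of the stronger peak of the *Grhl1* intron site (chr12:24592204-24592304). Both of these sites also had a peak in the D0 SOX9 list, from uninduced skin, and the stretches shown held none of the words. The source of SOX9 peaks at D0 was not tested.
Klf4: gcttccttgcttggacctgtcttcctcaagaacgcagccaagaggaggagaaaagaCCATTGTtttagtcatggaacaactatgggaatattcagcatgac
Gata3: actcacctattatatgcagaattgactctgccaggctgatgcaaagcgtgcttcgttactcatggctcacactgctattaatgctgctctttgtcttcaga
Grhl1: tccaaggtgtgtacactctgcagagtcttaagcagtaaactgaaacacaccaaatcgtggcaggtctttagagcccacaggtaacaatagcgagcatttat

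Among the 51 D0 MLL3/4 peaks at the 10 loci that were lost at both W1 and W2, 1 held a GATA word. It lies in an intron of *Grhl2*, 10.2 kb downstream of the start (chr15:37243166-37243266), and its GATA word is in capitals.
Grhl2: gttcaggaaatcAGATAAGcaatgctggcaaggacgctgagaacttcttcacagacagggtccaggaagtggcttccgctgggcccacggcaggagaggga

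SOX words were found in 5 of 32 member windows of the W1 SOX9 list (15.6%, interval 6.86 to 31.8) against 18.4% of the whole list, in 5 of 46 at W2 (10.9% against 15.5%), in 7 of 46 at W6 (15.2% against 18.8%) and in 2 of 12 at W12 (16.7% against 24.8%). AP1 words stood in 2 of 32, 7 of 46, 6 of 46 and 2 of 12 of the same windows, against 16.2%, 15.7%, 23.5% and 29.8% of the lists. Every interval of the members held the share of its list at W1, W2, W6 and W12 for both words. In all 131 D0 MLL3/4 windows of the loci, AP1 words stood in 8 (6.11%, 3.13 to 11.6) against 12.9% of the list, a share above the interval, and SOX words in 9 (6.87%, 3.66 to 12.5) against 5.31%. GATA words stood in 1 of the 51 lost D0 windows (1.96%, interval 0.347 to 10.3) against 4.05% of all such windows, and GRHL and KLF words in 0 and 2 of them, against 2.42% and 4.49%.

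A pair of coding exons of *Grhl1* are shown because D0 SOX9 peaks began and ended close to their borders. Not all exon peaks did so: that at chr12:24586020-24586277 reached well past coding exon 9 (24586056-24586150). The stretches are the D0 SOX9 peaks chr12:24575912-24576104 and chr12:24602897-24603068, and capitals mark the annotated coding exon, chosen after the values were seen.
Grhl1 coding exon 2: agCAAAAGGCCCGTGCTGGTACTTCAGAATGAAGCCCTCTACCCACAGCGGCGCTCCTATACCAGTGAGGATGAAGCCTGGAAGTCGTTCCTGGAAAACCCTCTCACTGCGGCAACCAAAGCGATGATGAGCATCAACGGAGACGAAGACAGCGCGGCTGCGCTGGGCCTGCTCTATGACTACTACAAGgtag
Grhl1 coding exon 10: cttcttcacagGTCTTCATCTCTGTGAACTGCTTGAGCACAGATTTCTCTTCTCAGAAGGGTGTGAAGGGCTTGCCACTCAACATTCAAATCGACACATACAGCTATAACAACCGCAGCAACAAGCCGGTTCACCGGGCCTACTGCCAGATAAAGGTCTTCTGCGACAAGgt
The first peak reached 2 bp and 4 bp beyond the exon, and the second 11 bp and 2 bp.

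At *Grhl1*, 11 of the 792 SOX9 peaks of D0 were found, and 10 of them were centred on coding exons. These 10 peaks were 85 to 401 bp wide, 78.1% of their bases were coding, and their maxima were 64 to 221 fragments. Of 17 coding exons of the gene, 10 held such a peak. None of the W1, W2, W6 and W12 SOX9 lists had a peak on a *Grhl1* coding exon, so all 10 sites were seen at D0 alone, as were 18 of the 28559 SOX9 sites of the whole series. The D0 MLL3/4 list showed the same pattern, with 9 of its 25 *Grhl1* peaks centred on coding exons, 8 of them on a D0 SOX9 peak. Of these 9 peaks, 7 were missing at W1 and all 9 at W2, whereas the W1 list still held 2, with maxima of 8 to 11 reads of coverage against 11 to 36 at D0. The cultured lists held 0 peaks centred on these exons. The source of signal on coding exons in the D0 lists of both antibodies was not tested, and the counts of lost peaks at *Grhl1* are also given without these peaks.

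**Figure D2:**
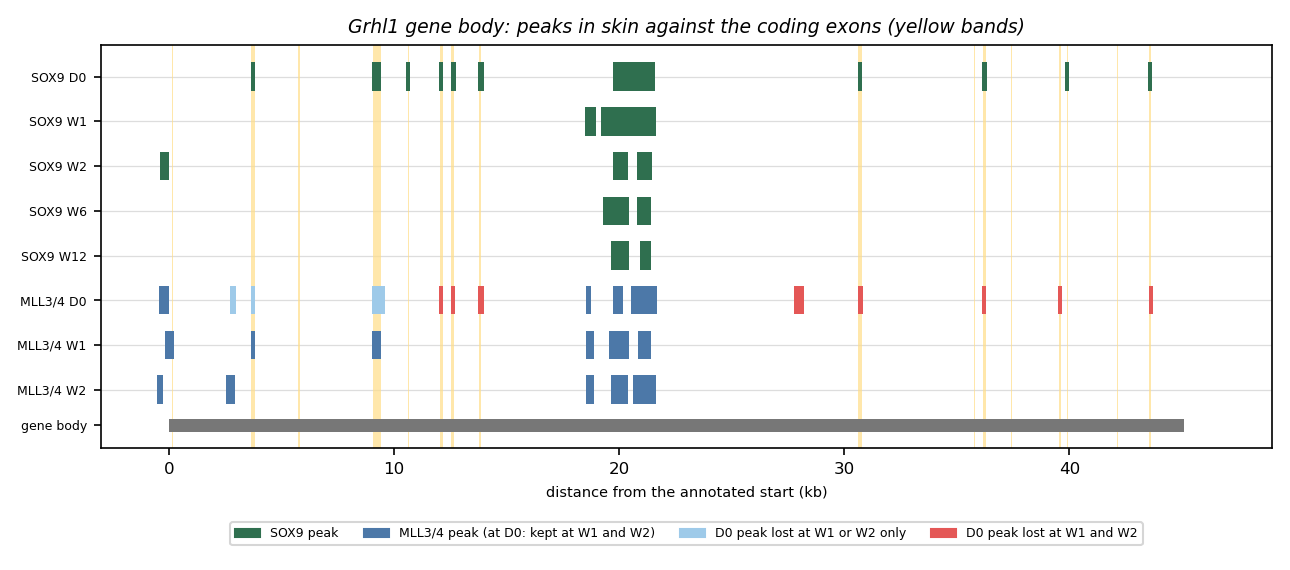
Peaks of the 8 skin lists along the *Grhl1* gene body, by distance from the annotated start in kb, with the coding exons as yellow bands and each peak drawn from its start to its end, the narrowest widened to be visible. At D0, 10 of the 11 SOX9 peaks and 9 MLL3/4 peaks sit on exons, while the intron site at 20 kb is present in every list.

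Before induction, MLL3/4 occupied the loci densely. The median locus of the 10 genes held 10.5 D0 peaks (lowest 5, highest 25) in a median span of 122 kb, against 2 peaks in 117 kb for all protein-coding genes. Among 20 other epidermal regulators (*Trp63*, *Klf3* and others) the median was 12 peaks, and among 13 hair follicle transcription factors (*Lhx2*, *Nfatc1*, *Lef1* and others) it was 7. A D0 MLL3/4 peak at an annotated start of the gene itself was found for 9 of the 10 genes, all but *Klf4*, against 33.5% of protein-coding genes.

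At W1, 63 of the 131 D0 MLL3/4 peaks at the 10 loci were missing (48.1%, interval 39.7 to 56.6), against 48.5% of the whole D0 list. At W2, 66 were missing (50.4%, 41.9 to 58.8) against 48.7%, and 51 were missing at both weeks (38.9%, 31.0 to 47.5) against 37.8%. These intervals held the share of the list. With only the upper 50% of each list by total signal compared, 47 of 80 were lost at W1 (58.8%, 47.8 to 68.9), above the 45.7% of the list at that setting. These 80 included 6 *Grhl1* exon peaks, and this setting was not repeated without them. In the full lists without the *Grhl1* exon peaks, 56 of 122 were lost at W1. Gains were fewer: 18 of the 88 W1 peaks had no D0 peak beneath them (20.5%, 13.3 to 30) against 39.7% of the W1 list, and 20 of 88 at W2 (22.7%, 15.2 to 32.5) against 35.7%. Both intervals ended below the share of the list, but at W1 they held it within 10 kb of the gene bodies (10 of 38, 26.3%, 15 to 42, against 39.7%), in the upper 50% of each list (26.7%, 16 to 41, against 36.6%) and above a total signal of 1800 (21.7%, 9.66 to 41.9, against 37.9%). At the 20 other epidermal regulators 28.8% of W1 peaks were gained (22.7 to 35.7), and at the 13 hair follicle factors 53.7% (44.3 to 62.8).

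The genes differed widely among themselves. *Ovol1* lost 8 of 9 D0 peaks at W1 and *Ovol2* 4 of 5, whereas *Zfp750* lost 2 of 11 and *Gata3* 2 of 9. Between them lay *Klf4* with 3 of 10, *Grhl2* with 5 of 13, *Klf5* with 4 of 10, *Grhl1* and *Grhl3* with 13 of 25 each, and *Cebpa* with 9 of 14. In the order of the 7076 genes with at least 5 D0 peaks, 2.61% had a higher lost share at W1 than *Ovol1* and 7.26% than *Ovol2*, while 6.29% had a lower one than *Zfp750* and 10.4% than *Gata3*. At W2, 11.9% were higher than *Ovol1* and 7.66% than *Ovol2*, while 46.8% were lower than *Zfp750* and 10.4% than *Gata3*. Loci of neighbouring genes overlap in that order. With so few peaks a locus, only the interval of *Ovol1* (56.5 to 98.0%) lay above the 48.5% of the list and only that of *Zfp750* (5.14 to 47.7%) below it, and at W2 the interval of each gene held 48.7%. With the upper 50% of every list alone, *Zfp750* lost 5 of 8 at W1 (62.5%), and above a total signal of 1800 *Ovol1* lost 1 of 2.

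**Figure D3:**
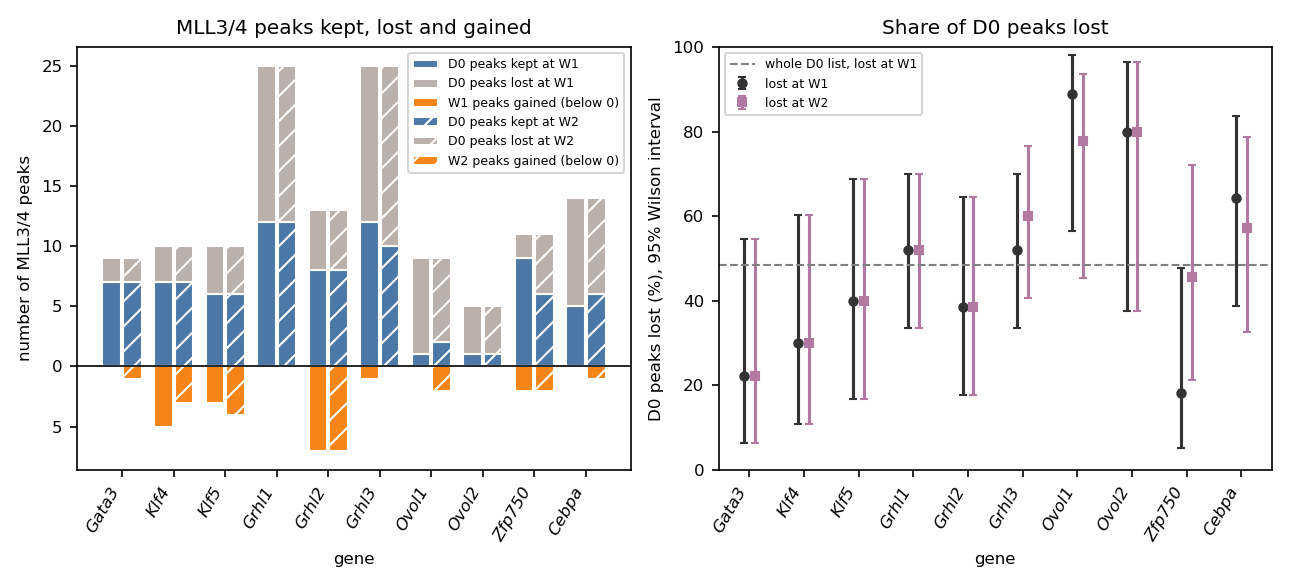
Left, MLL3/4 peaks per gene: D0 peaks kept (blue) and lost (grey) at W1 (plain) and W2 (hatched), with gained peaks (orange) below 0. Right, share of D0 peaks lost in percent with its 95% Wilson interval, and the whole list at W1 (48.5%) as a dashed line; *Ovol1* and *Ovol2* sit highest and *Zfp750* and *Gata3* lowest at W1.

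The lost peaks were weaker before induction. Their median percentile at the 10 loci was 39.6, against 71.4 for peaks kept at W1 (32.1 and 69.3 in the whole list). Of the 80 member peaks in the upper 50% of the list by total signal, 23 were lost at W1 (28.8%, 20 to 39.5) against 27.2% of all such peaks, and of the 51 in the lower 50% 40 (78.4%, 65.4 to 87.5) against 69.7%. Without the *Grhl1* exon peaks these were 19 of 74 (25.7%) and 37 of 48 (77.1%). In the upper 50%, *Grhl1* lost 8 of 19 peaks (4 of 13 without the exon peaks), *Grhl3* 5 of 15, *Cebpa* 4 of 9 and *Ovol1* 3 of 4. *Klf4* and *Klf5* lost 0 of 7 and 0 of 3. Of the peaks within 1 kb of a start of any gene, 14 of 27 were lost at W1 (51.9% against 52.1% of the list), and of the others 49 of 104 (47.1% against 47%).

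SOX9 arrived at nearly all of these loci. From D0 to W12, the lists held 15, 32, 46, 46 and 12 SOX9 peaks there. At W1, 9 of the 10 loci had a peak (all but *Ovol1*), against 52.8% of protein-coding loci, 95% of the 20 other epidermal regulators and 92.3% of the 13 hair follicle factors, and all 10 had one at W2 (58.0%) and at W6 (59.2%). In the W12 list, 6 of 10 did (40.2%), with 0 peaks left at *Grhl3*, *Ovol1*, *Ovol2* and *Cebpa*. At D0, 5 of 10 loci had a peak against 6.07%, with *Grhl1* on the exons described. Loci of the hair follicle factors held 72 SOX9 peaks at W1 and 60 at W12 over 13 genes, while the 20 other epidermal regulators held 107 and 47.

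Of the 61 SOX9 sites seen after induction, 49 lay on a D0 MLL3/4 peak (80.3%, 68.7 to 88.4) against 53.7% of the sites of the whole series. Another 5 sites gained MLL3/4 at W1 or W2 (8.20%, 3.55 to 17.8, against 20.7%), and 7 had no MLL3/4 peak at any of the 3 time points (11.5% against 25.6%). These groups divide the 61 sites, so the latter shares are together fixed by the share on D0 peaks. They do not show that sites off D0 peaks gained MLL3/4 less often. Sites seen at W12 were 11 of 61 (18.0%, 10.4 to 29.5) against 33.5%. Sites seen at all 4 induced times were 7 of 61 (11.5%, 5.67 to 21.8) against 17.9%, a share within the interval. At these genes SOX9 was thus mostly found where MLL3/4 already sat. Their loci were also denser in D0 MLL3/4 peaks, with a median of 10.5 against 2 for all protein-coding genes. The part of this density in the overlap was not tested. A smaller share of their sites than of the series was in the W12 list, for both the shortest of the 4. From W1 to W12, SOX9 peaks also fell from 107 to 47 at the 20 other epidermal regulators, and from 72 to 60 at the 13 hair follicle factors.

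The overlap of SOX9 with lost and kept MLL3/4 peaks at these loci was set against that of the whole lists. Of the 63 D0 MLL3/4 peaks lost at W1, 3 overlapped a W1 SOX9 peak (4.76%, 1.63 to 13.1) against 7.58% of the list, and of the 68 kept ones 35 did (51.5%, 39.8 to 62.9) against 55.0%. Of the 18 gained W1 peaks, 4 overlapped SOX9 (22.2%, 9 to 45.2) against 30.5%. The 3 lost peaks with SOX9 were 1 each at *Gata3*, *Klf4* and *Zfp750*. At W2, 7 of 66 lost peaks overlapped a W2 SOX9 peak (10.6%, 5.23 to 20.3) against 9.06%, and 37 of 65 kept ones did (56.9%, 44.8 to 68.2) against 58.3%. These 7 were 2 each at *Gata3* and *Zfp750* and 1 each at *Grhl2*, *Grhl3* and *Cebpa*. Of the 51 peaks lost at both weeks, 7 overlapped SOX9 at any time from W1 to W12 (13.7%, 6.81 to 25.7) against 12.4%, and 3 of them were *Ovol1* peaks on SOX9 of W6. Of the 20 peaks gained at W2, 3 overlapped SOX9 (15%, 5.24 to 36) against 38.5%. All of these intervals held the share of the list, except that of the peaks gained at W2. Above a total MLL3/4 signal of 1800, however, SOX9 lay on 4 of 25 peaks lost at W1 (16%, 6.40 to 34.7) against 37.6% of the list, a share above the interval.

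At *Gata3*, the 5 SOX9 lists from D0 to W12 held 1, 3, 3, 4 and 1 peaks, and the MLL3/4 lists of D0, W1 and W2 held 9, 7 and 8. A cluster 50.4 to 64.0 kb downstream of the annotated start kept all 5 of its D0 peaks at both weeks. Its strongest element (chr2:9834944-9835884, intergenic) was the SOX9 site present at D0 and every later time, with maxima of 2152, 10488, 12147, 8144 and 6756 RPKM in the order of the lists, highest at W2 and lowest at D0. The D0 peaks near the inner start of the gene, 10.3 to 11.4 kb downstream, were weaker (percentiles 24.6 to 41.0), and SOX9 overlapped all 3 at W1. The middle one was lost at both weeks (chr2:9879206-9879552) and another at W2.

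*Klf4* had 0, 5, 3, 2 and 1 SOX9 peaks and 10, 12 and 10 MLL3/4 peaks in the same order of lists. Of its W1 peaks 5 were gained, 2 of them at its start, which had had 0 peaks at D0. Its strongest D0 peak lost at both weeks was weak (percentile 8.27) and lay 2.47 kb upstream. The gained peak of highest percentile (92.6 at W1, 91.7 at W2) lay 32.0 to 32.2 kb downstream on the SOX9 site shown above, with SOX9 maxima of 4610, 5271, 3652 and 4458 RPKM at W1, W2, W6 and W12. *Klf5* had 0, 4, 2, 3 and 2 SOX9 peaks and 10, 9 and 10 MLL3/4 peaks, of which 3 were gained at W1. Both peaks at its start remained at W1 and W2. Its site 26.8 kb downstream (chr14:99324541-99325661) held SOX9 at all 4 times, with maxima of 6915, 5653, 5415 and 2758 RPKM, highest at W1 and lowest at W12. So did a weaker site 2.85 kb upstream, with 1902, 4126, 2351 and 1838 RPKM and a percentile of at most 19. The strongest D0 peak of *Klf5* lost at both weeks lay 36.5 kb upstream (percentile 35.7).

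The 3 grainyhead-like genes held 63 of the 131 D0 MLL3/4 peaks and 365 of all 736 peaks of the 16 lists. *Grhl1* had 11, 5, 8, 8 and 3 SOX9 peaks and 25, 12 and 12 MLL3/4 peaks. Leaving out the exon peaks, it lost 6 of 16 at W1 (37.5%) and 4 of 16 at W2 (25%), in place of 13 of 25 at each. Its intron site at 20 kb (chr12:24591480-24593912) ranked at percentile 99.8 of the W1 SOX9 list, with maxima of 2644, 10027, 10390, 10284 and 5929 RPKM from D0 to W12, lowest at D0. Its strongest peak lost at both weeks was the one on coding exon 10 (percentile 84.8). *Grhl2* had 1, 6, 7, 9 and 3 SOX9 peaks and 13, 16 and 15 MLL3/4 peaks, and it gained 7 at W1, the highest number among the 10 genes, 4 of them inside the gene 70.7 to 80.1 kb downstream of the start. Its SOX9 site of highest percentile (94.7 at W2) lay 40 kb upstream on D0 MLL3/4 peaks, with 3227, 4813 and 3694 RPKM at W1, W2 and W6 and no peak at W12, whereas an intron site 49 kb downstream was in every SOX9 list, with 1998, 4207, 5271, 4408 and 3033 RPKM. The strongest *Grhl2* peak lost at both weeks lay in an intron 2.23 kb downstream (percentile 47.6). *Grhl3* had 1, 4, 8, 8 and 0 SOX9 peaks and 25, 14 and 10 MLL3/4 peaks. Of its D0 peaks 12 were lost at both weeks, the strongest of them (percentile 74.9) 79.1 kb downstream at the start of *Nipal3*, where SOX9 peaks were called at W2 and W6, while the peak at its start and that under the strong SOX9 site 49.5 kb upstream (chr4:135622853-135624901, percentile 97.4 at W6) were kept. Of its 12 kept peaks 5 had SOX9 at W1, and of its 13 lost peaks 0.

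**Figure D4:**
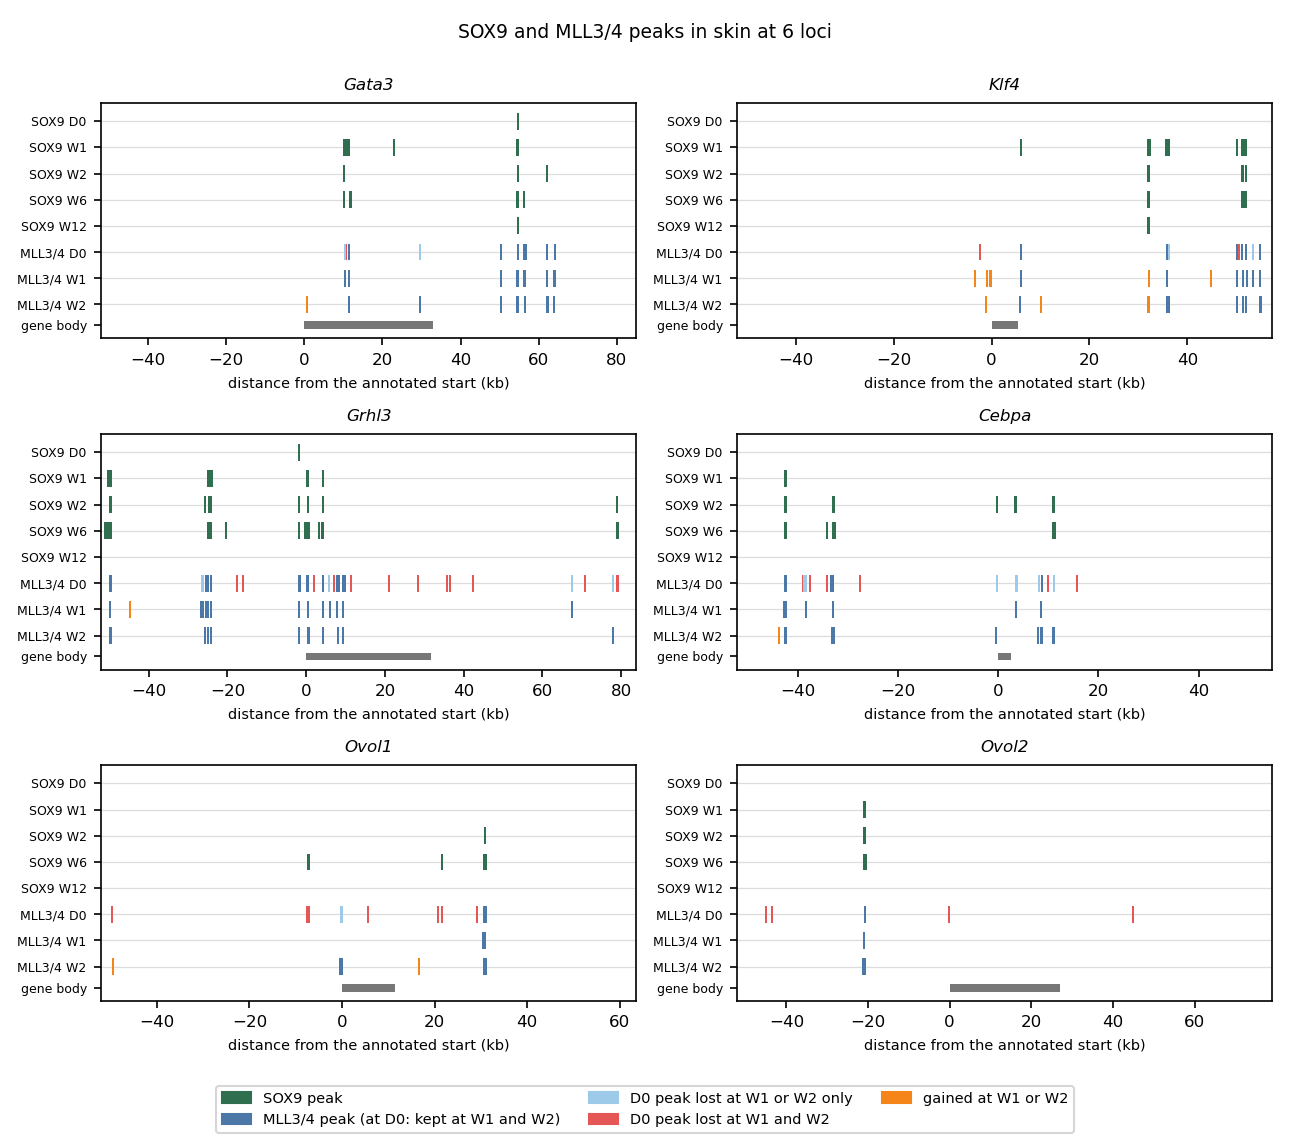
Peaks of the 8 skin lists at 6 loci, by distance from the annotated start in kb, with D0 MLL3/4 peaks coloured by their fate and narrow peaks widened to be visible. At *Ovol1* and *Ovol2* 1 D0 peak each was kept at W1, both on a later SOX9 site, and at *Gata3* the cluster beyond 50 kb was kept whole.

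*Ovol1* had 0, 0, 1, 3 and 0 SOX9 peaks and 9, 1 and 5 MLL3/4 peaks. The peak that was kept lay 30.7 kb downstream (percentile 94.8) and was bound by SOX9 at W2 and W6 with maxima of 2368 and 1931 RPKM. The peak at the start of the gene (percentile 80.7) was absent from the W1 list and present again at W2. The strongest peak lost at both weeks lay 21.6 kb downstream (percentile 61.6) and had SOX9 at W6. *Ovol2* had 0, 1, 1, 1 and 0 SOX9 peaks and 5, 1 and 2 MLL3/4 peaks. Its start peak was lost at both weeks, and the single kept peak, 20.8 kb upstream (chr2:144352725-144353147), was bound by SOX9 with maxima of 1959, 2216 and 1805 RPKM at W1, W2 and W6, all near the 1800 RPKM that every listed peak exceeded. At both genes, the peak that outlasted induction was the strongest of the locus at D0. Other genes share these loci, 5 at *Ovol1* and 4 at *Ovol2*, and 3 of the 8 lost peaks of *Ovol1* lay at the starts of *Ap5b1* and *Kat5*.

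*Zfp750*, which lies inside *Tbcd*, had 1, 3, 8, 4 and 2 SOX9 peaks and 11, 11 and 8 MLL3/4 peaks. It kept 9 of 11 at W1 but 6 of 11 at W2, when its start peak was missing too. Its SOX9 site of highest percentile (82.9 at W2) lay 24.9 kb upstream in *Tbcd*, with 2074 and 3667 RPKM at W1 and W2, and the site beside it, 25.7 kb upstream, was seen at all 4 times with 2247, 2216, 3148 and 2206 RPKM. The single peak lost at both weeks lay 1.70 kb downstream (percentile 42.5). A site 16.8 kb downstream had SOX9 at W2, W6 and W12 (2368, 4785 and 2941 RPKM), and an MLL3/4 peak was gained there at W2. *Cebpa* had 0, 1, 5, 4 and 0 SOX9 peaks and 14, 5 and 8 MLL3/4 peaks. Its start peak and its peak 11 kb downstream were absent at W1 and back at W2, both then on W2 SOX9 peaks. The SOX9 site of highest percentile (77.4 at W2) lay 42.5 kb upstream on a D0 MLL3/4 peak, with 2478, 4507 and 3106 RPKM at W1, W2 and W6, and the strongest peak lost at both weeks lay 37.7 kb upstream (percentile 68.7) without SOX9. Both lay nearer to a start of *Cebpg*, at 20223 bp (W2 peak of the site) and 25057 bp. Among the 10 genes, 12 of the 63 peaks lost at W1 were back at W2 (19%, 11.2 to 30.4, against 21.9% of the list), and 15 of the 131 were lost at W2 alone (11.5%, 7.06 to 18, against 10.8%), both close to the list.

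At the starts of the genes themselves, 7 of 10 had an MLL3/4 peak at W1 (22.2% of protein-coding genes) and 8 of 10 at W2 (23.5%). Start peaks of *Ovol1*, *Ovol2* and *Cebpa* were missing at W1, those of *Ovol2* and *Zfp750* at W2, and that of *Klf4* was present at W1 and W2 but not at D0.

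In culture, 90 MLL3/4 peaks without DOX lay at the 10 loci, 50 of them on a D0 peak of skin (55.6%, against 44.6% of the list). Of the 131 skin peaks, 55 had a cultured peak (42.0%, 33.9 to 50.5, against 40.4%). The cultured list without DOX was uneven between chromosomes: relative to all autosomes, the ratio of cultured to skin peaks was 0.746 on chromosome 4 (*Klf4*, *Grhl3*), 0.778 on 14 (*Klf5*) and 1.24 on 2 (*Gata3*, *Ovol2*). The part of this in the counts was not tested. *Klf5* had 1 cultured peak against 10 in skin, and *Grhl2* had 20 against 13.

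With WT-SOX9, 23 of the 90 peaks were kept (25.6%, 17.7 to 35.4) against 18.0% of the list. With dTA-SOX9, 48 were kept (53.3%, 43.1 to 63.3, against 55.7%), and with dHMG-SOX9 59 (65.6%, 55.3 to 74.6, against 56.5%). Cells without DOX were of the WT-SOX9 line alone, so for the mutant forms DOX, line and form cannot be told apart. The order of the forms was that of the whole lists, whose share each interval held. The WT-SOX9 list is the shortest, and with lists cut to equal length by total signal the kept shares were 59.5% (22 of 37, 43.5 to 73.7), 66.7% (46 of 69, 54.9 to 76.6) and 85.2% (52 of 61, 74.3 to 92), against 41.7%, 65.5% and 71.1% of whole lists, so that the intervals of the full and dHMG forms then lay above the list. They also did so in the upper 50% of each list, at 29.2% (18.2 to 43.2) against 16.2% and 83.3% (70.4 to 91.3) against 58.2%. Of the 23 peaks kept with WT-SOX9, 23 were also kept with dHMG-SOX9 (interval 85.7 to 100%, against 87.3% of the list), and 36 of the 90 were kept with dHMG-SOX9 but not with WT-SOX9 (40%, 30.5 to 50.3, against 40.7%), so both intervals held the share of the list. By gene, cells with the full, dTA and dHMG forms kept 2, 2 and 2 of 3 at *Gata3*, 0, 3 and 3 of 6 at *Klf4*, 0, 0 and 1 of 1 at *Klf5*, 5, 8 and 13 of 14 at *Grhl1*, 7, 13 and 15 of 20 at *Grhl2*, and 2, 5 and 6 of 10 at *Grhl3*. They kept 1, 5 and 6 of 10 at *Ovol1*, 1, 1 and 3 of 6 at *Ovol2*, 3, 6 and 5 of 14 at *Zfp750*, and 2, 5 and 5 of 6 at *Cebpa*. No gene kept more peaks with WT-SOX9 than with dHMG-SOX9.

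**Figure D5:**
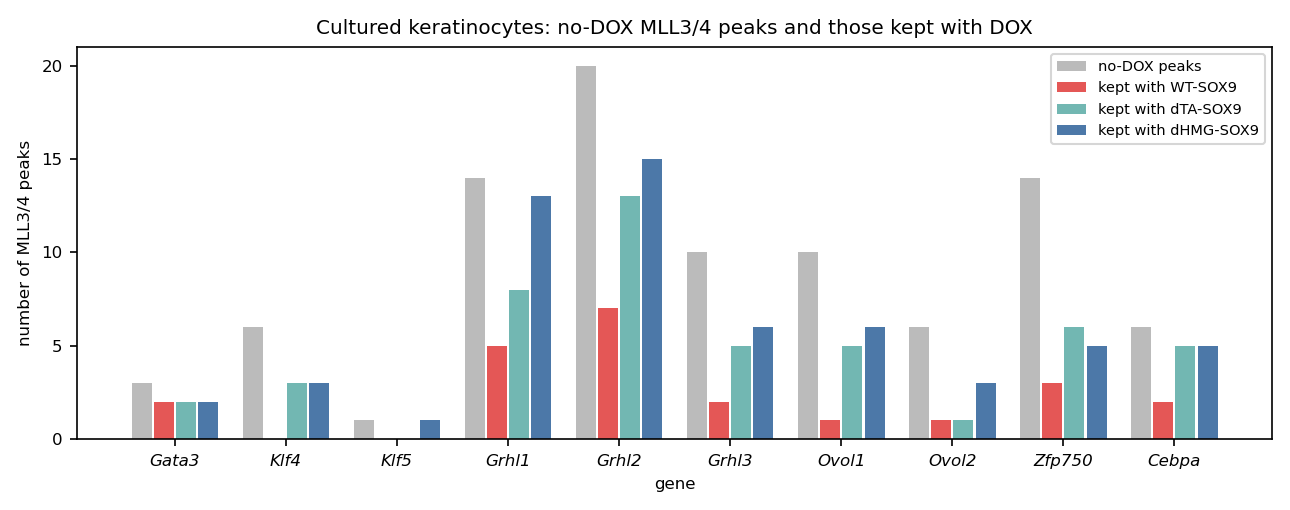
Number of MLL3/4 peaks at each locus in cultured keratinocytes without DOX (grey) and of those kept with WT-SOX9 (red), dTA-SOX9 (teal) and dHMG-SOX9 (blue). The red bars are the lowest or tied for the lowest at all 10 genes, and *Klf4* and *Klf5* kept 0 peaks with WT-SOX9.

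Start peaks followed this order. Without DOX, 9 of the 10 genes had an MLL3/4 peak at a start (all but *Cebpa*, against 23.5% of protein-coding genes), with WT-SOX9 3 (*Grhl2*, *Grhl3* and *Ovol2*, 5.86%), with dTA-SOX9 5 (15.2%) and with dHMG-SOX9 8 (18.7%). Gains were few with WT-SOX9, 4 of 28 peaks (14.3%, 5.70 to 31.5) against 41.8% of the list. They were 6 of 55 with dTA-SOX9 (10.9%, 5.10 to 21.8, against 26.1%) and 11 of 72 with dHMG-SOX9 (15.3%, 8.75 to 25.3, against 16.7%).

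MYC-tag peaks, meant to mark the transgenic protein, were sparse. They were also called without DOX and with dHMG-SOX9, and at these loci WT-SOX9 had hardly more than no DOX. The part of background in these peaks was not tested. The no-DOX, WT-SOX9, dTA-SOX9 and dHMG-SOX9 lists held 6, 7, 16 and 4, with at most 32 fragments a peak. Loci with a peak were 4, 6, 7 and 3 of 10, against 20.2%, 32.3%, 41.3% and 29.5% of protein-coding loci. Of the 7 WT-SOX9 sites 6 lay on a SOX9 site of induced skin (85.7%, 48.7 to 97.4, against 54.5% of the list), as did 11 of the 16 dTA-SOX9 sites (68.8%, 44.4 to 85.8, against 45.9%). For dHMG-SOX9 it was 1 of 4 (against 40.7%) and without DOX 4 of 6 (66.7%, against 58.0%), and every interval held the share of its list. The 7 sites were 2 at *Zfp750* and 1 each at *Gata3*, *Grhl1*, *Grhl2*, *Ovol2* and *Cebpa*, and the *Gata3* site, 54.7 kb downstream in skin, also had a MYC-tag peak without DOX (2024 RPKM, 10 fragments, against 3447 RPKM, 21 fragments, with WT-SOX9). At the *Zfp750* site 16.8 kb downstream of the start, a MYC-tag peak of 23 fragments and a gained MLL3/4 peak (percentile 79.4) were present with WT-SOX9, and neither mutant form had a peak of either kind on the SOX9 site of skin. Without DOX, a weaker MLL3/4 peak (percentile 12.6) already overlapped the same SOX9 site, 17.1 kb downstream of the start, without overlapping the gained peak. No MYC-tag peak of WT-SOX9 was called at *Klf4*, *Klf5*, *Grhl3* or *Ovol1*, in a list of 6.09 M fragments. The dTA-SOX9 list, of 4.88 M, held 1 at *Klf4*, 1 at *Grhl3* and 2 at *Ovol1*. Without DOX there was 1 each at *Klf5* and *Ovol1*, and with dHMG-SOX9 1 at *Ovol1*. The part of depth in missing peaks was not tested.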

How the data were processed

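Groups came from the sample labels: of 41 samples, 32 stood behind the 16 pooled lists, and the other 9, of JUN, ARID1a and BRG1, were left aside. For MLL3/4 with WT-SOX9 and DOX, the labels describe replicate 2 for either sample, so their numbering is unsure. The authors aligned paired reads to mm10 (Bowtie2 2.2.9 in the submitters' processing notes), kept fragments of at most 120 bp, pooled replicates with SAMtools 1.3.1, made tracks with deepTools 3.1.2 and called peaks with SEACR at a threshold of 0.01. RPKM is the unit of peak maxima in the SOX9 and MYC-tag lists as deposited, all of them above 1800. Division by the RPKM of 1 fragment (the common step of all maxima) gave fragments, and the step gave the depth for coverage in positions of 1 bp. The deposited pooled MLL3/4 lists hold unscaled signal, that is coverage in whole numbers. In every deposited list the total signal is the sum over a peak.

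Peaks shared at least 1 bp with a locus or another peak. Genes and coding exons came from GENCODE vM21, sequences from RefSeq's GRCm38.p6. Coordinates count from 1. Peaks on the mitochondrial sequence, 3 in each cultured MLL3/4 list, were left out. Python 3.11.15, pandas 2.3.3, numpy 2.4.6, scipy 1.17.1 (Wilson intervals) and matplotlib 3.10.9 were used, and overlaps were tested on simulated data. Named peaks were, per gene, the SOX9 peak of highest percentile, the strongest D0 MLL3/4 peak lost at W1 and W2, and every SOX9 site seen at all 4 induced times; others were named after their values were seen. The members and lists were chosen with earlier results of these data known. Alternatives were 8 settings, plus leaving out each locus or the *Grhl1* exon peaks, both chosen after seeing the data.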

Additional observations from a re-analysis of the deposited data

How the results depend on the processing

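No paired analysis was possible because each group has 1 pooled list, so no fit between groups could be made. The spread between replicates is unknown, MLL3/4 depth is unknown, and a weak peak can be absent from a list for depth alone. Under 8 settings, 51 values of the loci together moved by less than their counting interval (or less than 1.5 times for counts) and 20 by more, and of the values of single genes 57 and 13. Whole-list shares at the same setting stand in brackets. In the upper 50% of each list by total signal, the share of D0 MLL3/4 peaks lost at W1 was 58.8% (47.8 to 68.9, above the 45.7% of the list), SOX9 peaks numbered 17 at W1 and 5 at W12, and kept shares were 66.7% (57.1%) with dTA-SOX9 and 83.3% (58.2%) with dHMG-SOX9. In lists of equal size, SOX9 lay on 16.2% (21.8%) of lost and 70% (72.2%) of kept peaks, and kept shares were 59.5% (41.7%), 66.7% (65.5%) and 85.2% (71.1%) for the full, dTA and dHMG forms. Above a total MLL3/4 signal of 1800, 58.1% (51.2%) were lost, and SOX9 lay on 16% (37.6%) of lost and 88.9% (83.6%) of kept peaks. Within 10 kb of the gene bodies, 57.8% were lost (48.5% of the D0 list), SOX9 peaks numbered 16 at W1 and 7 at W12, and WT-SOX9 had 4 MYC-tag peaks, as it did where the nearest start had to be that of the gene. With peaks within 500 bp merged, SOX9 lay on 0 of 50 lost peaks (6.38%). Without the second no-DOX replicate, kept shares were 20.9% (16%), 45.2% (50.8%) and 54.8% (50.6%) in the same order. In these alternatives kept shares at the 10 loci stayed in the same order of forms, and lost peaks held SOX9 less often than kept ones. The interval of the W1 gains held the list's share within 10 kb, in the upper 50% and above 1800, and that of SOX9 on lost peaks ended below it above 1800. Kept shares of the full and dHMG forms had intervals above the list's in the upper 50%, in lists of equal size and with the nearest-start rule, and that of dHMG also within 10 kb. The cause of each shift was not tested. After the data were seen, 2 alternatives were added. Leaving out each locus in turn gave 45.1 to 50.8% lost at W1 and 15.3 to 23.7% gained, with no value moved, and leaving out the *Grhl1* exon peaks gave 45.9% lost.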
